A study of Mus musculus with 8 samples.

Results

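Notochord cells are the axial mesoderm of the embryo, and they were selected here from single-cell RNA-seq data of mouse chimaeras by the transcripts they held. Of 49838 kept cells, 277 had at least 1 unique molecular identifier (UMI, the count of 1 captured transcript) of T, at least 1 of Foxa2 and at least 1 of Noto or Shh. These notochord-gated cells were 204 of 37186 cells at E8.5 and 73 of 12652 cells at E7.5. Cells were kept from 1500 UMIs upward if mitochondrial genes took no more than 30% and ribosomal protein genes no more than 35% of them. Because the measured counts of T, Foxa2, Noto and Shh chose the cells, the levels of these 4 genes are given as a description, and no p is given for them in cells defined by them.

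The chimaeras were made by injecting embryonic stem (ES) cells of 1 Tet1/Tet2/Tet3 triple-knockout line, with the background C57BL/6J-129Sv and an H2B-tdTomato reporter under the ubiquitous CAG promoter, into C57BL/6J blastocysts. Pooled embryos were dissociated and sorted into tdTomato+ cells (Tet-TKO) and tdTomato- cells of the same chimaeras (WT host). At E8.5 the tdTomato+ fraction gave 4 libraries and the tdTomato- fraction 2, and at E7.5 each fraction gave 1. Genotype, strain and the passage through 1 ES line cannot be told apart in any comparison of Tet-TKO with WT host cells. No label says whether libraries of a group came from separate pools, so p-values may measure technical spread only. Of 4 Tet-TKO libraries at E8.5, library 4 held 8 gated cells. The main fits across genes needed at least 10 cells per library and left it out. Between genotypes they thus compared 3 Tet-TKO with 2 WT host libraries. Library 4 entered the alternative fits with at least 5 cells per library and with libraries 3 and 4 summed. Below, values at E8.5 follow the order Tet-TKO libraries 1 to 4 and then WT host libraries 1 and 2 unless stated, and CPM is the UMIs of a gene scaled to 1e+06 UMIs summed over the gated cells of a library.

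The notochord is a rod of mesoderm under the neural tube that is laid down from the node, the organiser at the anterior end of the primitive streak. It secretes Shh, which patterns the floor plate and somites, and the BMP antagonists Chrd and Nog. Cells at the surface of the node carry motile cilia, built under the transcription factors Noto and Foxj1, and the leftward flow they drive lowers the Nodal antagonist Dand5 on 1 side of the node and so sets left-right asymmetry. TET dioxygenases oxidise methylated cytosine in CG dinucleotides, a step of active DNA demethylation.

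The windows of 250 bases upstream of the start of 6 genes described below are printed first (RefSeq sequence, build GRCm38.p6, 5′ to 3′ on the strand of the gene), because TET enzymes act on CG dinucleotides and because node cilia genes are a class with a known promoter motif. In the first 3, CG dinucleotides are in capitals, and the windows differ in how many they hold. The Noto window (chr6:85423636-85423885, plus strand) has 5, the Dand5 window (chr8:84822824-84823073, minus strand) has 1 and the window of the imprinted gene Nnat (chr2:157559828-157560077, plus strand) has 12. The median was 6 over all 32851 such windows. Over the genes tested between genotypes, each taken at the median of its windows, it was 17.
Noto: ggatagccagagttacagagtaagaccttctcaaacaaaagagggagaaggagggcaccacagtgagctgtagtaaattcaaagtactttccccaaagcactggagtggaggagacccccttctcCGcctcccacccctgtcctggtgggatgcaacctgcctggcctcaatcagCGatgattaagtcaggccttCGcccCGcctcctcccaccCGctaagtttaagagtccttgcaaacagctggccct
Dand5: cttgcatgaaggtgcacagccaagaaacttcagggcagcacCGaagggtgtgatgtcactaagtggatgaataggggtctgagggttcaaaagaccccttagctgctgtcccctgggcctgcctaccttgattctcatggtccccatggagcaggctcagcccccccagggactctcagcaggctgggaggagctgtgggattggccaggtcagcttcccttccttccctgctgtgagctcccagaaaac
Nnat: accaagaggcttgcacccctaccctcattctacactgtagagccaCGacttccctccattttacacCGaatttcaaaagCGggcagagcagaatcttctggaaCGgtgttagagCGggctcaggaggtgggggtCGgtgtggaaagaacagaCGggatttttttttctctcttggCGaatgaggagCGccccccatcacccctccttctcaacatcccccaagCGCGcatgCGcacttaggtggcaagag

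In the other 3, from the cilia genes Fam183b and Mlf1 and from Erich2, capitals mark GTTGCC or its reverse complement, an arm of the X-box that RFX transcription factors bind. Fam183b (chr11:58801961-58802210, minus strand) had 2 matches, at 16 and 67 bases before the start, Erich2 (chr2:70508569-70508818, plus strand) had 1 at 164 bases and Mlf1 (chr3:67373847-67374096, plus strand) had 1 at 105 bases. Both strands were searched, and 10.4% of all windows held the letters. Counted by gene, they were found in 11 of the 25 motile cilia genes that have a window (44%). Among the genes tested between genotypes that have a window, 12.6% held them. Among the genes called lower in Tet-TKO, of which Fam183b and Erich2 are members, 3 of 20 with a window held them (15%). These matches are a description of letters, and no binding was measured. Erich2 was chosen after its values were seen.
Fam183b: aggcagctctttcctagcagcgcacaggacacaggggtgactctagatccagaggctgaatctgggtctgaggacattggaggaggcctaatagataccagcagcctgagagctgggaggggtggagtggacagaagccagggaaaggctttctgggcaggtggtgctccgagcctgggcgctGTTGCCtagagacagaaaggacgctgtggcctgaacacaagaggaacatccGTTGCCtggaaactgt
Erich2: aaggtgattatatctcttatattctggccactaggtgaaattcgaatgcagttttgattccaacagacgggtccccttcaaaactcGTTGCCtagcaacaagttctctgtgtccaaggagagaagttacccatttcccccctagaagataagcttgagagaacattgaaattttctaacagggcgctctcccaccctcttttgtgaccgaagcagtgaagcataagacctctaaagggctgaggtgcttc
Mlf1: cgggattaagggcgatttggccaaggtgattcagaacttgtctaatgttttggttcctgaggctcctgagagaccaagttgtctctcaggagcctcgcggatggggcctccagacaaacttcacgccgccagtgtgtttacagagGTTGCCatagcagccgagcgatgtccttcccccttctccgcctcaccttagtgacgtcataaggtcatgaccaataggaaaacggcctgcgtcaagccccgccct

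The gate was first set against notochord markers that it did not use. At E7.5 the gated cells had high levels of Chrd (196 CPM in Tet-TKO, 156 CPM in WT host) and of Foxj1 (651 and 480 CPM). At E8.5 Chrd was at 28.8, 16.5, 20.5 and 6.93 CPM in Tet-TKO and 23.8 and 15.8 CPM in WT host gated cells, and a UMI of Chrd or Nog was present in 33 of 56, 13 of 25, 21 of 28, 6 of 8, 37 of 63 and 15 of 24 gated cells. A Foxj1 UMI was rarer, in 8 of 56, 3 of 25, 1 of 28, 0 of 8, 20 of 63 and 4 of 24 of them, where the 0 of 8 allows a share of up to 37.5%. In haemoglobin-rich cells, which should lack both, at most 0.269% of cells of a library held a Chrd UMI and at most 7.84% a Nog UMI. Transcripts of other tissues were found as well. The gut endoderm list summed to 451, 474, 271, 670, 526 and 388 CPM in the E8.5 gated cells and to 311, 247, 208, 203, 246 and 148 CPM in all other kept cells, higher in the gated cells of each library. Cdx2 is on this list and on that of caudal progenitors. A gut list UMI other than Cdx2 was in 43 of 56, 18 of 25, 20 of 28 and 8 of 8 gated Tet-TKO cells. In WT host it was in 43 of 63 and 11 of 24. Of these cells, 18, 10, 6, 2, 21 and 8 had no UMI of Chrd, Nog, Noto or Foxj1. The list of neuromesodermal progenitors and caudal epiblast summed to 616, 602, 576, 426, 943 and 824 CPM in the gated and to 478, 503, 395, 398, 375 and 342 CPM in all other kept cells, again higher in each library. The E8.5 set thus carried markers of gut and caudal progenitors beside those of the notochord. At E7.5 a gut list UMI other than Cdx2 was in 6 of 12 gated Tet-TKO and 34 of 61 gated WT host cells. The gut list summed there to 631 and 424 CPM in the gated and to 240 and 291 CPM in all other kept cells. Cells of both stages are therefore called gated cells rather than notochord.

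Members close to the gate were frequent. Of the E8.5 gated cells, 12, 7, 7, 2, 10 and 6 passed with a single T UMI, 21, 13, 4, 1, 35 and 8 with a single Foxa2 UMI and 17, 6, 6, 1, 13 and 2 with a single UMI of Noto and Shh together. In haemoglobin-rich cells of the same libraries, T had a UMI in 0.926%, 3.14%, 1.96%, 9.09%, 2.02% and 1.38% of cells, the 9.09% being 2 of 22 cells, Foxa2 in at most 1.75% and Shh in at most 1.21%. Just outside, 95, 72, 37, 17, 64 and 29 cells had T and Foxa2 but neither Noto nor Shh, and 41, 24, 47, 19, 141 and 82 cells had Foxa2 and Shh but no T. Most gated cells of the Tet-TKO libraries held the sort's reporter. A tdTomato UMI was found in 42 of 56, 18 of 25, 25 of 28 and 7 of 8 of them at E8.5, in 11 of 12 at E7.5, and in 0 of 61, 0 of 63 and 0 of 24 gated WT host cells, which allow shares of up to 4.92%, 4.76% and 12.5%.

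Libraries differed in depth. Their summed UMIs ranged from 65601218 to 136982886, and the gated cells had medians of 16179, 17245, 35718 and 65198 UMIs in the Tet-TKO and 10030 and 10162 UMIs in the WT host libraries at E8.5. A doublet caller marked 11, 10, 0, 0, 21 and 4 of the gated E8.5 cells, and 26 of the 61 at E7.5 in WT host. Doublet removal left 6632 of 7039, 8800 of 9545, 2252 of 2299, 998 of 1008, 7671 of 8257 and 8350 of 9038 kept cells. At E7.5 it left 6717 of 7142 in WT host. Gated cells were thus marked more often than kept cells in Tet-TKO libraries 1 and 2 of E8.5 and in every WT host library. At most 29 barcodes were shared by a pair of libraries, and the summed counts of no pair agreed within sampling noise. Tet-TKO libraries 1 and 2 and libraries 3 and 4 of E8.5 stood closest, at a chi-square per degree of freedom of 15.5 and 17.8, against 140 to 546 for the other pairs. Whether such a pair came from 1 pool was not tested, and fits with each of the pairs summed are given beside the calls between genotypes.

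Gated cells were rare in every library, and their shares overlapped between genotypes at E8.5. They made up 0.796%, 0.262%, 1.22% and 0.794% of the cells in the Tet-TKO libraries (mean 0.767% ± 0.392, SD, n = 4) and 0.763% and 0.266% in the WT host libraries (0.514% ± 0.352, n = 2). Library 3 of Tet-TKO was highest, and Tet-TKO library 2 and WT host library 2 were lowest, so the groups overlapped. The difference of the mean log2 share was 0.57 (an exact two-sided permutation test over 15 splits gave p = 0.4, the smallest possible being 0.133). This test could not have passed a threshold of 0.05 at any difference. Since the gate reads single UMIs, each cell was also thinned to 5000 UMIs, which left 17, 6, 8, 1, 26 and 14 gated cells. The mean shares were then 0.197% ± 0.135 and 0.253% ± 0.120 and the log2 difference turned to -0.58 (exact permutation p = 0.667). Without WT host library 2 it was -0.19 and without WT host library 1 it was 1.34. Between libraries that carry the same number, the log2 ratio was 0.06 for number 1 and -0.02 for number 2. Haemoglobin-rich cells numbered 108, 287, 51 and 22 among the kept Tet-TKO cells and 1486 and 2458 among the kept WT host cells. With these left out of the total, at full depth, the mean shares were 0.784% and 0.648% and the log2 difference was 0.23. In a share read from UMIs, the number of notochord cells and the RNA of the gate genes per cell cannot be told apart.

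**Figure D1:**
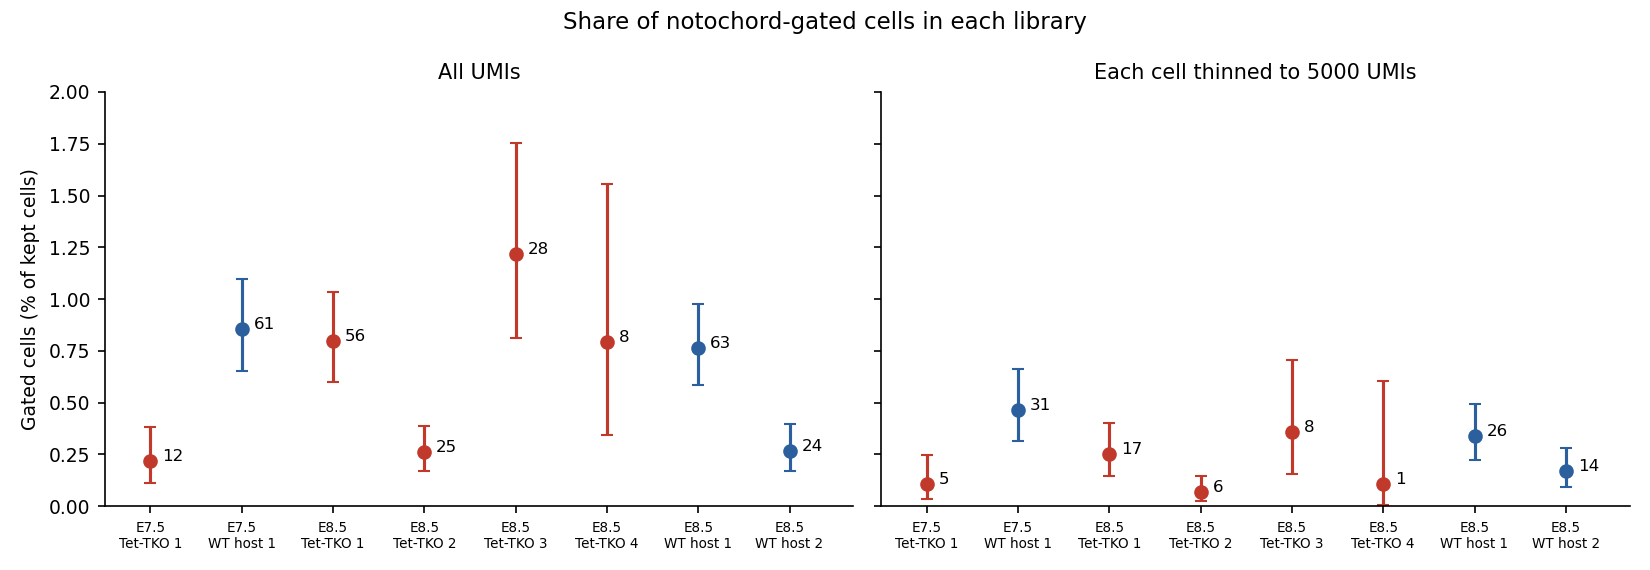
Share of notochord-gated cells among kept cells in each library (y axis, percent), with all UMIs (left) and after each cell was thinned to 5000 UMIs (right). Points are libraries, bars are exact 95% binomial intervals, which cover counting error only, and labels give the number of gated cells. The E8.5 libraries of both genotypes overlap, and at E7.5 the WT host library (0.854%) lies above the Tet-TKO library (0.218%).

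At E7.5, where 1 library per genotype allows no test, 12 of 5510 Tet-TKO cells (0.218%, exact 95% binomial interval 0.113 to 0.380) and 61 of 7142 WT host cells (0.854%, 0.654 to 1.10) were gated. After thinning, 5 and 31 gated cells remained (0.105% and 0.465%), and with doublets removed 12 and 35 (0.229% and 0.521%). The WT host share was higher in all of these counts, with the shallower cells on that side (median 9710 UMIs against 15099.5 in Tet-TKO).

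The gate genes differed in level at E8.5. Noto, a homeobox factor of the node and posterior notochord (chr6:85423886-85428877, plus strand), stood at 28.8, 25.9, 15.6 and 0 CPM in Tet-TKO and 165 and 145 CPM in WT host gated cells. All 4 Tet-TKO libraries lay below both WT host libraries. Shh, the ligand, was at 322, 333, 380 and 284 CPM against 573 and 553 CPM. T, the Brachyury factor of notochord and streak, was at 504, 387, 468 and 236 CPM against 679 and 635 CPM. Foxa2 was at 129, 118, 124 and 118 CPM against 152 and 158 CPM. Each of the 4 genes was lower in every Tet-TKO library than in either WT host library. Over the libraries fitted between genotypes, which leave out library 4, 27.1% of all tested genes did not overlap, in either direction. Moreover, a cell with more UMIs passes the gate at a lower CPM, and the Tet-TKO cells were the deeper ones.

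Among all gated cells, those with Noto made up a smaller portion in each Tet-TKO library than in either WT host library. A Noto UMI was present in 10 of 56, 3 of 25, 8 of 28 and 0 of 8 cells (17.9%, 12%, 28.6% and 0%), and in 25 of 63 and 9 of 24 WT host cells (39.7% and 37.5%). The 0 of 8 allows a share of up to 37.5%. With each cell thinned to 5000 UMIs the portions were 9.80%, 8.00%, 10.7% and 0% against 26.3% and 29.2%. These cells had been gated at full depth, so depth still entered their selection. With doublets removed, a Noto UMI was in 8 of 45, 0 of 15, 8 of 28 and 0 of 8 gated Tet-TKO cells. In WT host it was then in 8 of 42 and 7 of 20, so the groups overlapped. Haemoglobin-rich cells, which should lack Noto, had a Noto UMI in 0% of cells in the 4 Tet-TKO libraries and in 0.135% and 0% in the WT host libraries, at medians of 24072, 16728, 55580, 78364.5, 19191.5 and 16202.5 UMIs.

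**Figure D2:**
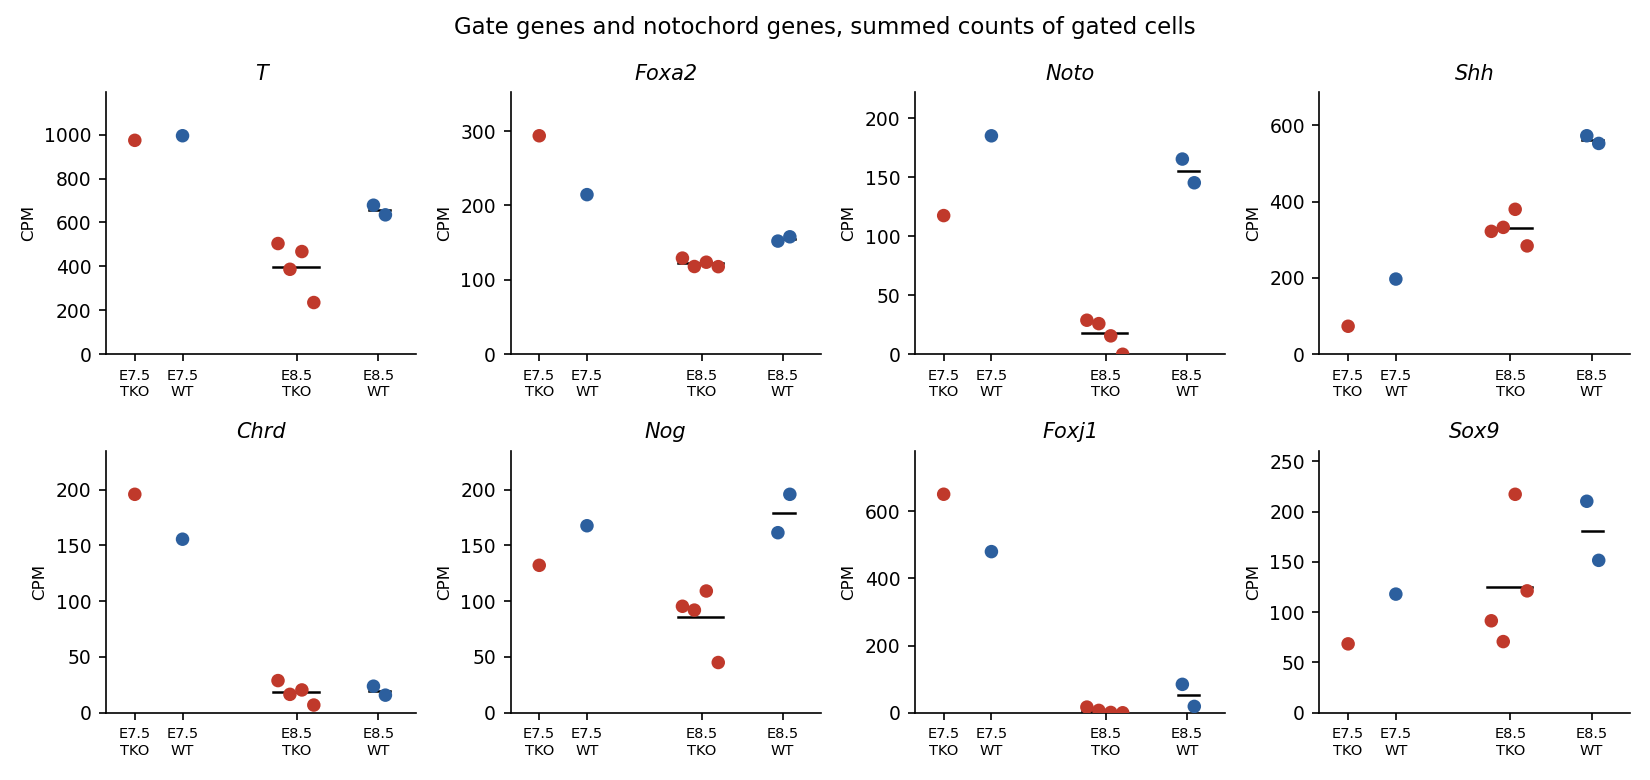
Level of the 4 genes of the gate (top) and of 4 genes of the notochord and node outside it (bottom), in CPM of the summed UMIs of the gated cells (y axis). Points are libraries and bars are means over the libraries of a group at E8.5. Noto is below 30 CPM in all Tet-TKO libraries at E8.5 and at 145 CPM or above in WT host, whereas Chrd overlaps between the genotypes.

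Nog, Foxj1 and Chrd, the 3 notochord markers fixed outside the gate, did not pass the test between genotypes. Nog, the BMP antagonist, was at 95.4, 92.0, 109 and 45.0 CPM in Tet-TKO and at 161 and 196 CPM in WT host gated cells, with no overlap between the groups (log2 difference -0.76 ± 0.19, SE, adjusted p = 0.0882 in edgeR's quasi-likelihood fit, after Benjamini-Hochberg). Foxj1, the regulator of motile cilia, was at 16.9, 7.08, 0.974 and 0 CPM against 84.6 and 18.9 CPM (-2.68 ± 0.69, adjusted p = 0.0922). Chrd, given above, overlapped (0.18 ± 0.42, adjusted p = 0.961). Non-overlap alone is common in this comparison, since 27.1% of the 7701 tested genes did not overlap between the 3 and 2 libraries fitted.

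To learn what sets the gated cells apart from cells that share 1 arm of the gate, they were compared within libraries with 2 other sets, each as a block design over the 5 libraries. The first set held cells with Foxa2 but no T and no Noto UMI (2700 over the series), mostly endodermal or floor plate by the known use of Foxa2, and the second held cells with T but no Foxa2, Noto or Shh UMI (8355), as in the streak and caudal progenitors. Genes are called where the adjusted p was below 0.01 and the log2 fold at least 1 in size. Against Foxa2 cells 435 of 11558 genes were called (3.76%), 276 higher (2.39%) and 159 lower (1.38%) in gated cells. Against T cells 1015 of 12611 were (8.05%), 796 higher (6.31%) and 219 lower (1.74%).

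The BMP antagonists were among the higher genes in both. Nog was higher by 3.67 ± 0.15 on the log2 scale than in Foxa2 cells and by 3.17 ± 0.18 than in T cells, and Chrd by 3.13 ± 0.31 and 4.26 ± 0.39. Dkk1, a Wnt antagonist of the anterior axial mesoderm, was higher by 1.17 and 1.62. Of the list of BMP and Wnt antagonists and ligands, 3 of 13 tested genes were higher and 1 lower against Foxa2 cells, the Wnt antagonist Sfrp5, and 4 of 13 were higher and 1 lower against T cells, the activin antagonist Fst. Both comparisons use the same gated libraries and are not independent of each other.

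Motile cilia genes were the list with the largest count. Of those tested, 16 of 26 were higher than in Foxa2 cells and 21 of 27 higher than in T cells, and none was lower. A gene that passes the filter on low counts through gated cells alone has to differ, which limits these counts. Foxj1 was higher by 4.40 ± 0.52 and 5.71 ± 0.59, Pifo, a gene of ciliary disassembly and the node, by 5.11 ± 0.59 and 6.75, and Fam183b, a ciliated-cell transcript, by 4.22 and 8.21 ± 0.32. Cfap126, of the ciliary base, was higher by 5.01 ± 0.31 than in Foxa2 cells. Summed over the 30 genes of the list, gated cells at E8.5 had 489, 170, 161 and 152 CPM in Tet-TKO and 1809 and 922 CPM in WT host, and Foxa2 cells had 99.1, 102, 122 and 108 against 89.0 and 99.9 CPM. The gated level was thus above the level of Foxa2 cells in all 6 libraries, by far the most in WT host.

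Among transcription factors of the axial mesoderm, 4 of 13 tested were higher than in Foxa2 cells and 10 of 13 higher than in T cells. Sox9, which drives sheath and cartilage genes, was higher by 2.80 ± 0.20 and 3.36 ± 0.17, and its target Col2a1, a collagen of the notochord sheath, by 1.47 and 3.27. Bicc1, an RNA-binding protein that acts in the node and was put on this list, was higher by 2.37 ± 0.15 and 3.84. Krt19, an epithelial keratin, was higher by 2.68 ± 0.14 and 4.48 ± 0.14. Epcam, an epithelial adhesion protein, was higher than in T cells by 2.14, and 11 of 16 epithelial genes were. The Nodal pathway gave 3 of 7 higher genes against Foxa2 cells, Nodal (3.56), Dand5 (3.07) and the co-receptor Cfc1 (1.11), and none lower. Against T cells 4 of 8 were higher, the same 3 and the protease gene Furin, and 2 were lower, the co-receptor Tdgf1 and the antagonist Lefty2.

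Hedgehog genes and posterior genes were read next. Of the hedgehog list, 0 of 14 tested genes were called against Foxa2 cells, and 3 of 13 were higher and 1 lower against T cells. Ptch1, the receptor that the pathway induces, was at 235, 153, 356, 364, 181 and 180 CPM in gated cells and at 71.1, 76.9, 97.8, 104, 52.2 and 52.5 CPM in T cells, higher in each library (1.53 ± 0.10). Among Hox genes, 11 of 20 were higher than in Foxa2 cells, such as Hoxc8 (2.61), and 6 of 20 lower than in T cells, such as Hoxb9 (-1.91). Cdx4, a caudal factor, was higher than in Foxa2 cells (2.68) and lower than in T cells (-1.67), as was the ligand Fgf8 (1.59 and -1.55). For Cdx4 and Fgf8 the gated level lay between the 2 sets. Of 20 cell division genes, 0 were called in either comparison, but at an adjusted p of 0.05 without a fold 10 were lower than in Foxa2 cells, where 5.03% of all genes were, and 15 lower than in T cells, where 13.3% were, with 1 higher in each.

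Genes of other tissues went both ways. Against Foxa2 cells, 9 of 9 visceral and yolk sac endoderm genes, 5 of 8 blood genes and 4 of 9 neural tube and floor plate genes were lower. Of 9 gut genes 4 were lower and 1 was higher, Cdx2, which also marks the caudal epiblast, and 2 of 8 presomitic genes were higher, Hes7 and Dll3. Against T cells, 6 of 9 presomitic genes, such as Tbx6 (-1.91), and 8 of 8 blood genes were lower. In that comparison 3 of 8 gut genes (Sox17, Ihh and Trh) were higher and none lower, and of 9 neural tube and floor plate genes 4 were higher (Sox21, Nkx6-1, Nkx2-9 and Ntn1) and 1 lower, Crabp1. The yolk sac transcripts Ttr and Rbp4 were higher than in T cells (1.93 and 1.55), and the fit with cells thinned to 5000 UMIs gave -2.55 and -1.22. That fit also had other gated cells and fewer libraries, since Tet-TKO library 1 and the 2 WT host libraries alone had 10 of them left, so depth was not the only change.

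**Figure D3:**
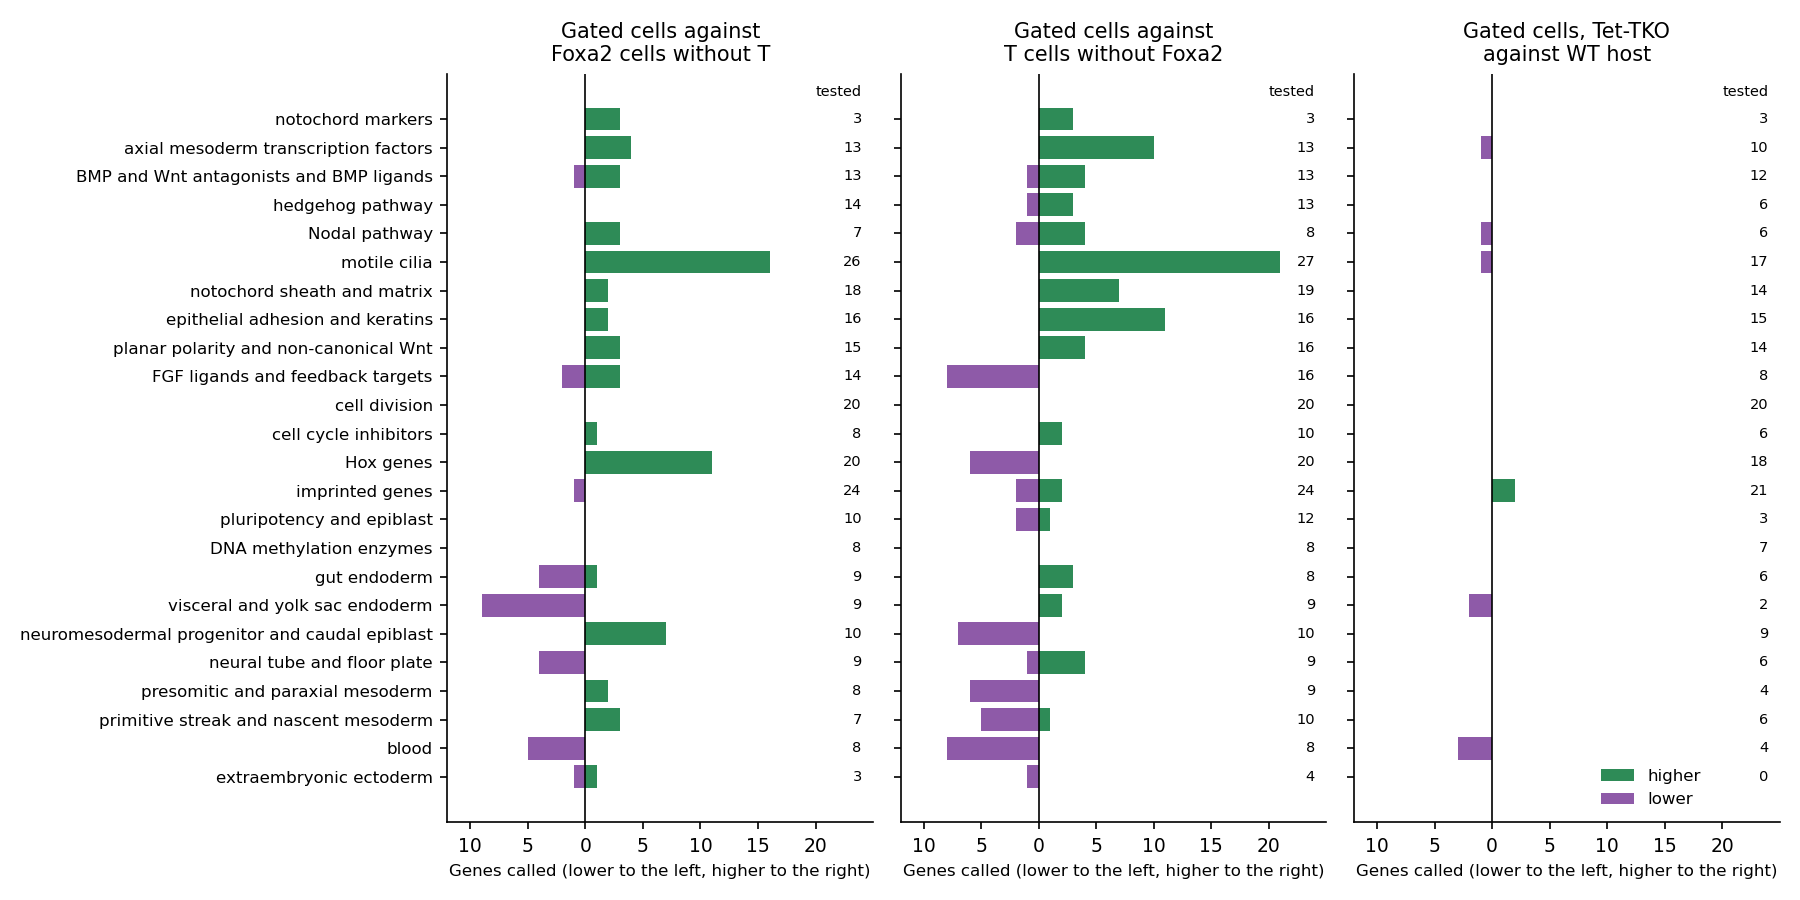
Genes called in each fixed list (y axis) in gated cells against Foxa2 cells, against T cells and between genotypes at E8.5. Bars count genes called higher (green, to the right) or lower (purple, to the left), with the number tested at the right of each panel. Motile cilia genes have 16 and 21 higher genes in the first 2 panels and 1 lower gene in the last, where the genes of the gate are left out of the bars and of the number tested.

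Within the gate, cells with a Noto UMI were compared with those without, which passed the gate through Shh, so Noto and Shh are not read here. The comparison was made in the 2 libraries with at least 10 cells of each kind, Tet-TKO library 1 (10 and 46 cells) and WT host library 1 (25 and 38 cells), so it rests on 2 blocks. The doublet caller marked most of the cells with Noto in WT host library 1. Its removal left 8 and 34 cells there and 8 and 37 in Tet-TKO library 1. A fit on these was not run, since too few libraries were left. Of 5412 genes, 311 were called (5.75%), 240 higher (4.43%) and 71 lower (1.31%) in cells with Noto. The count was 61 with DESeq2 and 119 with no block, so the calls depend on the tool and the fit. Of 21 motile cilia genes tested, 19 were higher, but a gene that passes the filter on low counts through cells with Noto alone has to differ. Foxj1 was higher by 4.22 ± 0.47, Pifo by 4.44 ± 0.30 and Fam183b by 4.93 ± 0.29. By library, the summed cilia list was at 2448, 144 and 231 CPM in cells with Noto of Tet-TKO libraries 1 to 3 and at 4964 and 2255 CPM in WT host. In cells without Noto it was at 167, 175, 131 and 152 CPM in Tet-TKO and at 292 and 340 CPM in WT host. Tet-TKO libraries 2 and 3, with 3 and 8 cells with Noto, were near the level of cells without it, and library 1 was at 2448 against 2255 CPM in WT host library 2. In Tet-TKO library 1 a single cell held 158 of the 348 UMIs of the list in the 10 cells with Noto.

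**Figure D4:**
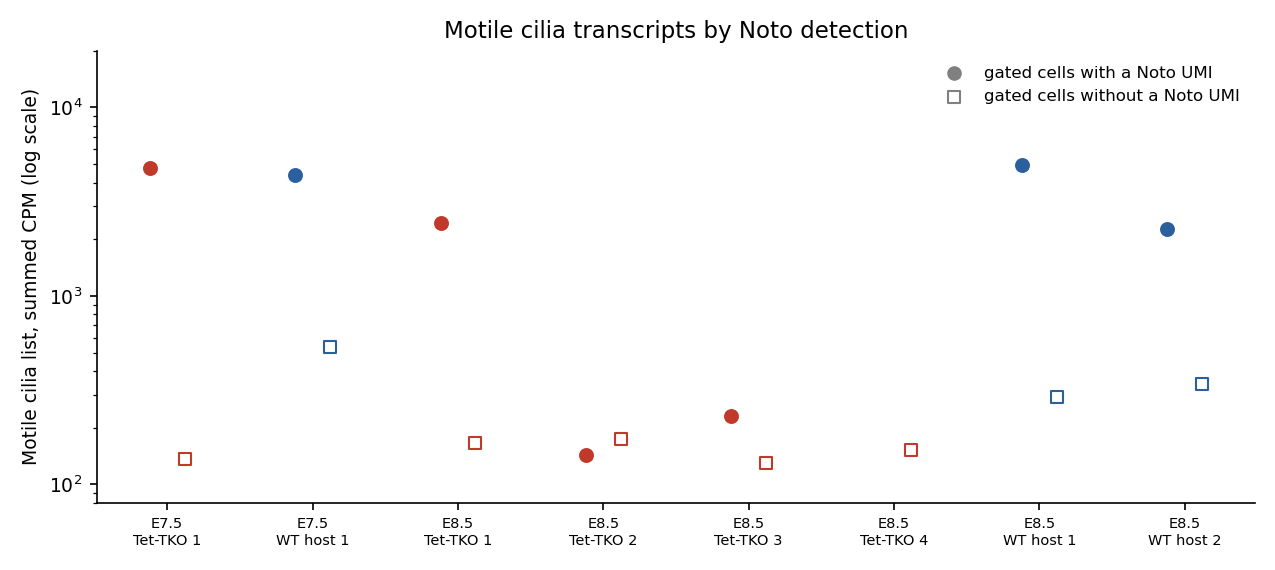
Summed level of the 30 motile cilia genes (y axis, CPM, log scale) in gated cells with a Noto UMI (filled circles) and without (open squares), by library. Red marks Tet-TKO and blue WT host. In both WT host libraries and in Tet-TKO library 1 of E8.5 the circle lies more than 1000 CPM above the square, in Tet-TKO libraries 2 and 3 it lies near it, and library 4 had no cell with Noto.

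Of the Nodal pathway 2 of 5 genes tested were higher with Noto, and of the axial transcription factor list 4 of 9, and none was lower. Bicc1 was at 134, 72.0 and 71.6 CPM in cells with Noto of Tet-TKO libraries 1 to 3 and at 395 and 395 CPM in WT host, and at 24.3, 42.3, 41.7, 39.2 and 31.8 CPM without Noto in the same libraries. It was higher with Noto in all 5 (2.92 ± 0.33 in the 2 libraries fitted). Cfc1 (2.64), Dand5 (1.91), Nog (1.57) and Sox9 (1.38) were higher too. Of gut genes 2 of 5 were lower, of Hox genes 4 of 7, of epithelial genes 2 of 13 and of cell division genes 3 of 20. Of 7 caudal progenitor genes 2 were lower and 1 higher, Grsf1, and Hes7, the presomitic gene that was tested, was higher (2.11). Epcam was at 70.3, 28.8, 45.6, 171 and 177 CPM with Noto and at 477, 533, 452, 746 and 544 CPM without (-2.36 ± 0.22). The endoderm factor Sox17 (-2.45), the hormone precursor gene Trh of the gut list (-2.16), the peptide gene Apela (-3.37), Hoxc8 (-4.66), Cdx4 (-3.79), Fgf8 (-2.02) and the proliferation marker Mki67 (-1.79) were lower as well.

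Between genotypes, 34 of 7701 genes were called in gated cells at E8.5 (0.442%), 10 higher (0.13%) and 24 lower (0.312%) in Tet-TKO. Noto is among the 24 and is a gene of the gate. Without the gate genes 33 of 7697 were called, 10 higher and 23 lower, and those are the calls read here. With Tet-TKO libraries 1 and 2, and 3 and 4, summed, 35 genes were called, 31 of them shared with the 34. These sums bring in library 4, so the cells changed as well as the pairing. DESeq2 called 34 genes, of which 27 were shared. The count was 20 with doublets removed and 21 with at least 2 UMIs of T, of Foxa2 and of Noto and Shh together, and leaving out single libraries gave 10 (without WT host library 1) to 110 (without Tet-TKO library 3), with 65 without Tet-TKO library 1. The calls include node and cilia genes, imprinted genes, transcripts of blood and yolk sac and ribosomal gene copies, given in that order, and other genes such as Gstm1, Cyba, Cpn1, Mfap2 and Srarp that belong to none of these.

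Fam183b was the called gene of the motile cilia list, of which 17 genes passed the filter on low counts and 13 did not. It was at 39.8, 9.43, 5.85 and 0 CPM in Tet-TKO and at 357 and 171 CPM in WT host gated cells (chr11:58792797-58801960, minus strand), with no overlap (-3.70 ± 0.50, adjusted p = 0.00198 by edgeR). At an adjusted p of 0.05 without a fold, 7 of the genes that passed were lower, where 1.12% of all genes were, but a gene that passes the filter through WT host alone has to differ. Genes without a call included Cfap126 (47.7, 16.5, 8.77 and 0 against 185 and 117 CPM, -2.53 ± 0.46, adjusted p = 0.0161), Pifo (57.7, 14.2, 0 and 0 against 220 and 133 CPM, -2.75 ± 0.68, adjusted p = 0.0825) and Mlf1 (47.7, 30.7, 16.6 and 15.6 against 110 and 66.3 CPM, -1.46 ± 0.39, adjusted p = 0.108). Each of these 4 genes was lower in all Tet-TKO libraries than in both WT host libraries. Over the libraries fitted, which leave out library 4, 27.1% of all genes were separated in either direction. Of the 17 genes, 2 had a positive difference. Spa17, a sperm flagellum protein also found in cilia, was called at 18.9, 9.43, 8.77 and 3.46 against 91.3 and 53.7 CPM (-2.48 ± 0.38, adjusted p = 0.00547), and Erich2 at 22.9, 14.2, 10.7 and 1.73 against 112 and 85.3 CPM (-2.57 ± 0.33, adjusted p = 0.00159).

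A pair of node regulators was lower. Dand5, the Nodal antagonist at the node's edge (chr8:84815405-84822823, minus strand), was at 5.97, 21.2, 3.90 and 0 CPM in Tet-TKO and at 120 and 56.8 CPM in WT host (-3.46 ± 0.50, adjusted p = 0.00375 by edgeR). Bicc1, which acts on Dand5 mRNA in the node (chr10:70922832-71159700, minus strand), was at 39.8, 47.2, 50.7 and 31.2 against 155 and 142 CPM (-1.65 ± 0.22, adjusted p = 0.00184). The groups did not overlap for either gene. A gene that passes the filter on low counts through WT host alone has to differ, which limits the reading of Dand5. Nodal itself (-2.01, adjusted p = 0.472) and Cfc1 (-0.93, adjusted p = 0.695) were not called, so 1 of the 6 Nodal pathway genes tested was.

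Bicc1, Fam183b and Dand5 were also compared in other sets of cells and libraries. In gated cells without a Noto UMI, a subset chosen after seeing the data, the Bicc1 difference was -0.04, whereas Fam183b at -2.68 (adjusted p = 0.0379 by edgeR) and Dand5 at -2.85 (adjusted p = 0.289) kept a negative difference without a call, and 17 genes were called in all. In gated cells with a UMI of Chrd or Nog, also chosen after seeing the data, the differences were -2.35 ± 0.25 for Bicc1, -4.15 for Fam183b and -3.79 for Dand5, all called, among 44 genes. A test between genotypes among cells with Noto alone was not run, since only 1 library of each genotype had at least 10 of them. Leaving out 1 WT host library leaves a WT arm of 1 library, which is assumed to vary like the Tet-TKO libraries. Without WT host library 1 the differences were -1.56 for Bicc1 and -3.004 for Fam183b (adjusted p = 0.095 for both by edgeR) and -2.64 for Dand5 (adjusted p = 0.423), and without WT host library 2 Bicc1 lay just past the threshold (-1.71, adjusted p = 0.01001). With doublets removed the differences were -0.87 (adjusted p = 0.371), -1.50 (adjusted p = 0.834) and -2.89 (adjusted p = 0.106) in the order Bicc1, Fam183b and Dand5. DESeq2 called Bicc1 but neither Fam183b (-3.75, adjusted p = 0.0639) nor Dand5 (-3.14, adjusted p = 0.101), and with at least 2 UMIs of T, of Foxa2 and of Noto and Shh together, which left 2 Tet-TKO libraries, Fam183b had -3.32 (adjusted p = 0.0132 by edgeR). With the like libraries summed, library 4 included, the differences were -1.73, -3.93 and -3.79, all called. With single Tet-TKO libraries left out, Bicc1 ranged from -1.73 to -1.56, Fam183b from -5.23 to -3.14 and Dand5 from -4.16 to -3.06, all called.

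**Figure D5:**
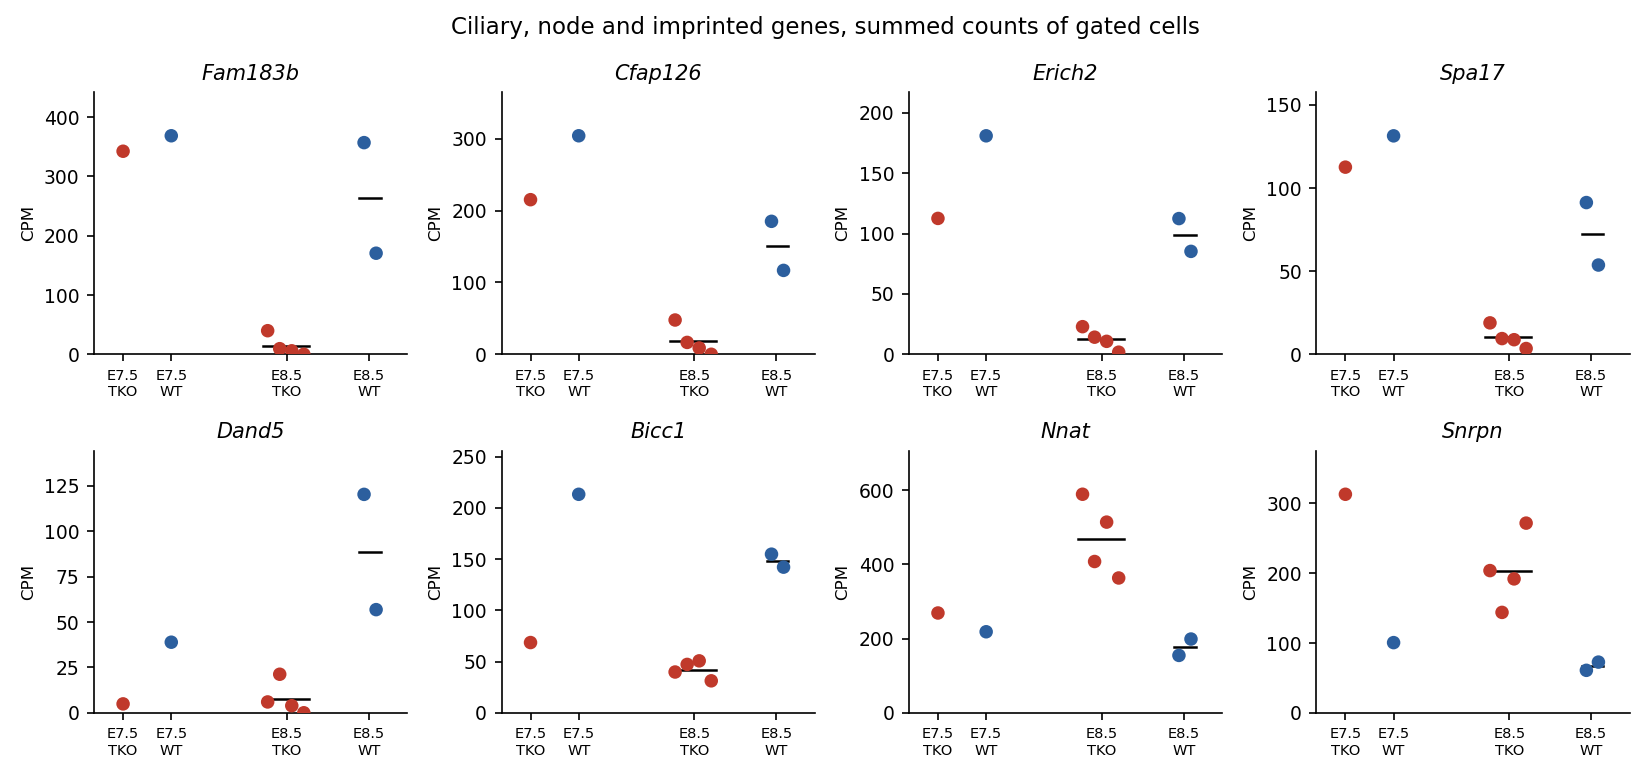
Level in gated cells of Fam183b, Cfap126, Erich2 and Spa17 (top), of the node genes Dand5 and Bicc1 and of the imprinted genes Nnat and Snrpn (bottom), in CPM (y axis). Points are libraries and bars are means over the libraries of a group at E8.5. For the first 6 genes all Tet-TKO libraries at E8.5 lie below both WT host libraries and for the last 2 all lie above, while at E7.5 Fam183b is at 343 CPM in Tet-TKO and 369 CPM in WT host. Cfap126 was not called between genotypes.

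Imprinted genes were the list with called genes in the other direction. Of 21 tested, 2 were called higher and 5 were higher at an adjusted p of 0.05, where 0.325% of all genes were. Nnat, expressed from the paternal allele (chr2:157560078-157562522, plus strand), was at 590, 408, 514 and 364 CPM in Tet-TKO and 155 and 199 CPM in WT host (1.61 ± 0.21, adjusted p = 0.00155 by edgeR). Snrpn, a spliceosomal protein gene also expressed from the paternal allele (chr7:59982495-60140219, minus strand), was at 204, 144, 192 and 272 against 60.8 and 72.6 CPM (1.54 ± 0.23, adjusted p = 0.00476). Neither overlapped. Cdkn1c, a cell cycle inhibitor expressed from the maternal allele, was at 600, 866, 848 and 616 against 472 and 382 CPM (0.90, adjusted p = 0.0348), and the maternal transcript Meg3 was at 332, 439, 370 and 334 against 366 and 335 CPM (0.17, adjusted p = 0.874). Nnat was also called in gated cells without Noto (1.92). With the same limit of a WT arm of 1 library, without WT host library 1 Nnat was at 1.43 (adjusted p = 0.0994 by edgeR) and Snrpn at 1.40 (adjusted p = 0.250), and without WT host library 2 they were at 1.77 (adjusted p = 0.0101) and 1.63 (adjusted p = 0.0260). Snrpn also had no call with doublets removed (1.58, adjusted p = 0.0222 by edgeR), with at least 2 UMIs of T, of Foxa2 and of Noto and Shh together (1.60, adjusted p = 0.0295), after thinning, which left a Tet-TKO arm of 1 library (1.69, adjusted p = 0.356), in cells without Noto (1.51, adjusted p = 0.0416) and in cells with Chrd or Nog (1.38, adjusted p = 0.0165).

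The genotype differences in gated cells were set against those in the other sets by an interaction. The Nnat difference was larger in gated than in T cells by 1.36 ± 0.18 (adjusted p = 6.17e-05 by edgeR), where T cells had 129, 164, 155 and 151 CPM in Tet-TKO and 105 and 152 CPM in WT host. It was not detectably different from that in Foxa2 cells (-0.05 ± 0.18), where Nnat was at 389, 379, 458 and 463 against 99.8 and 176 CPM. Snrpn did not differ in either (-0.47, adjusted p = 0.405, and 0.40, adjusted p = 0.674). For Dand5 the interaction was -3.52 ± 0.61 with Foxa2 cells (adjusted p = 0.00395) and -3.38 ± 0.58 with T cells (adjusted p = 0.0013). Dand5 was at 2.70 to 4.78 CPM and at 3.11 to 4.18 CPM in those cells, low levels with little room for a difference, so these values mostly repeat the gated difference. For Bicc1 the difference did not pass against either set (-0.22, adjusted p = 0.839, and -1.16, adjusted p = 0.193).

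In all, 58 genes had a genotype difference in gated cells that differed from that in Foxa2 cells (0.502%), 46 in the positive (0.398%) and 12 in the negative direction (0.104%). Against T cells there were 18 (0.143%), 10 positive (0.0793%) and 8 negative (0.0634%). Neither count was stable, with 2 to 195 calls against Foxa2 cells and 5 to 80 against T cells over the alternatives run. Against Foxa2 cells they included Cdkn1c (1.75 ± 0.25) and the matrix genes Sparc (1.44 ± 0.20) and Col4a1 (1.51 ± 0.23). For neither matrix gene did the genotype difference pass in gated cells (0.18, adjusted p = 0.914, and 0.04, adjusted p = 0.986 by edgeR). In Foxa2 cells Sparc was at 402, 258, 248 and 175 CPM in Tet-TKO and at 778 and 679 CPM in WT host, with no overlap. After thinning to 5000 UMIs, with a Tet-TKO arm of 1 library, the Col4a1 interaction was -0.65. The Foxa2 set held yolk sac transcripts at unequal levels, with summed visceral markers of 1176, 97.3, 778 and 28.3 against 14965 and 7004 CPM, and their part in these interactions was not tested.

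Transcripts of blood and yolk sac were among the strongest negative differences. Hba-x, an embryonic haemoglobin, was at 7.95, 11.8, 7.79 and 3.46 CPM in Tet-TKO and at 253 and 704 CPM in WT host gated cells (-5.66 ± 0.43), and Ttr, a yolk sac transport protein, at 15.9, 9.43, 16.6 and 1.73 against 676 and 281 CPM (-4.98 ± 0.36). Rbp4, which carries retinol, was lower by 4.58 ± 0.55 on the log2 scale and Fgg, a fibrinogen chain, by 4.82 ± 0.57. Of 8 blood genes 4 passed the filter on low counts and 3 of them were lower, and of 9 visceral genes 2 passed and both were lower, but genes that pass through WT host alone have to differ. The same transcripts moved in other cells. The blood list summed to 16.9, 37.7, 16.6 and 6.93 against 515 and 1459 CPM in gated cells, and to 50.7, 353, 167 and 342 against 4772 and 9793 CPM in T cells. Their source in the gated cells was not tested.

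Among ribosomal gene copies, Rps3a3 was at 4570, 4147, 3805 and 4265 CPM in Tet-TKO and at 156 and 9.47 CPM in WT host gated cells (5.47 ± 0.51), whereas Rps3a1, its near-identical relative, was at 267, 672, 615 and 275 against 4434 and 4597 CPM (-3.08 ± 0.27). The pair exchanged levels between the genotypes, which also differ in strain, and reads that fit both copies are uncertain. Srarp was at 3.98, 2.36, 0.974 and 0 against 43.7 and 53.7 CPM (-4.14 ± 0.54). It was near the floor in Tet-TKO, and a gene that passes the filter on low counts through WT host alone has to differ. The TET genes themselves were low. Tet1 was at 13.9, 16.5, 14.6 and 20.8 against 37.0 and 28.4 CPM (-1.13, adjusted p = 0.258 by edgeR), Tet3 was not called (-0.48) and Tet2 was below the filter on low counts, and 3′ counts do not show whether a transcript carries the knockout deletion. Reads outside the deleted part are counted as before, so these levels are no check of the labels.

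Several fixed lists held no gene called between genotypes, where a call was made for 0.442% of all genes, so a count of 0 in a list of this size is near the background and is not a result about the list. By edgeR none passed of 6 hedgehog (Shh left out), 12 BMP and Wnt, 14 sheath and matrix, 15 epithelial, 14 planar polarity, 8 FGF, 20 cell division, 18 Hox, 7 DNA methylation enzyme and 9 caudal progenitor genes tested, by the rule of an adjusted p of 0.01 and a log2 fold of 1. In the test over all genes 764 had an unadjusted p under 0.05. Ptch1 was at 235, 153, 356 and 364 against 181 and 180 CPM and overlapped (0.54, adjusted p = 0.555). Sox9 overlapped too, at 91.5, 70.8, 217 and 121 against 210 and 152 CPM, as did Col2a1 at 82.5, 42.5, 112 and 79.7 against 101 and 75.8 CPM. The epithelial gene Krt19 was at 420, 441, 356 and 319 against 565 and 733 CPM.

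At E7.5 gated cells of both genotypes carried transcripts of motile cilia genes, beside the gut transcripts given above. Values are given with exact 95% Poisson intervals, which cover counting error only. Noto, a gene of the gate, was at 117 CPM (75.3 to 175) in Tet-TKO and 185 CPM (155 to 219) in WT host. A Noto UMI was in 10 of 12 and 52 of 61 cells, a description only, since Noto helped to choose them. With doublets removed, 10 and 30 gated cells with Noto were left. Foxj1 was at 651 CPM (545 to 771) and 480 CPM (432 to 532), Fam183b at 343 CPM (267 to 433) and 369 CPM (326 to 415) and Pifo at 450 CPM (363 to 552) and 468 CPM (420 to 520). The summed cilia list was at 3607 and 3663 CPM. The intervals of Fam183b and Pifo overlapped between the genotypes, whereas that of Foxj1 lay higher in Tet-TKO.

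Bicc1 differed between the 2 libraries at E7.5 beyond counting error, at 68.5 CPM (37.5 to 115) in Tet-TKO and 213 CPM (181 to 249) in WT host. Shh, a gene of the gate, was at 73.4 CPM (41.1 to 121) and 197 CPM (167 to 232). Dand5 was at 4.89 CPM (0.124 to 27.3), from 1 UMI, and 38.9 CPM (26.0 to 55.8), so these intervals overlap slightly. Chrd was at 196 CPM (140 to 267) and 156 CPM (129 to 187), Nog at 132 CPM (87.1 to 192) and 168 CPM (140 to 200), Nodal at 63.6 CPM (33.9 to 109) and 72.4 CPM (54.4 to 94.5) and Nnat at 269 CPM (203 to 350) and 219 CPM (186 to 255), with overlapping intervals. Cer1, a Nodal and BMP antagonist of the anterior endoderm, was at 259 CPM (194 to 339) and 139 CPM (114 to 169), higher in Tet-TKO beyond counting error. The yolk sac transcript Ttr was at 44.0 CPM (20.1 to 83.6) and 669 CPM (612 to 730). A single library per genotype, with 12 cells on the Tet-TKO side, gives no measure of the spread between embryos or pools.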

How the data were processed

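Single-cell RNA-seq (10x Genomics 3′ chemistry) was measured in 8 libraries of sorted chimaera cells. The authors mapped reads to mm10 with Cell Ranger and the GRCm38.92 annotation plus tdTomato, and deposited raw counts of UMIs for each gene in each barcode, without normalization. The Cell Ranger version differs between the methods and the header of the counts, so none is given.

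Cells below 1500 UMIs, above 30% mitochondrial or above 35% ribosomal UMIs were dropped. Barcodes with at least 1 UMI of T, of Foxa2 and of Noto or Shh were gated. Members, gene lists and tests were chosen with earlier results of these data known. Groups came from the labels, and replicates are libraries.

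Counts were summed per library over at least 10 cells and tested with edgeR 4.0.16 in R 4.3.3 (filterByExpr, TMM, estimateDisp, glmQLFit, glmQLFTest), with library as a block within libraries. Calls needed an adjusted p (Benjamini-Hochberg) under 0.01 and a log2 fold of at least 1 in size, and T, Foxa2, Noto and Shh were kept out of the calls wherever the cells compared were defined by them. Between genotypes they stayed in the fit and its background and were left out of the calls read. Named genes were the notochord markers, the gate genes, tdTomato and Tet1, Tet2 and Tet3, called members of each list (at most 8) with up to 4 uncalled members of highest CPM, and the 12 largest changes in each direction whose library values did not overlap. For interactions, genes also called between genotypes were named. Erich2, Gstm5, Cyba, Rps3a1 and the other genes outside this rule were chosen after their values were seen. Shares were compared by exact permutation (Python 3.11.15, SciPy 1.17.1). Intervals are exact at 95% (binomial or Poisson) and, like the limit of 3 counts for a count of 0, cover counting error only. Gene positions are from GENCODE M21 (GRCm38). Scripts were tested on simulated data.

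Alternatives were DESeq2 1.42.0 and its size factors, no filter on low counts, at least 5 or 20 cells per sum, thinning to 5000 UMIs, at least 2 UMIs of T, of Foxa2 and of Noto and Shh together, 3000 UMIs per cell, Scrublet doublets removed (scanpy 1.11.5, 0.8% per 1000 barcodes), tdTomato-matched cells, a replicate block, like libraries summed and each library left out. Haemoglobin-rich cells had at least 1% haemoglobin UMIs, and for the shares they were also left out of the total. Subsets with Chrd or Nog, or without Noto, and calls without blood, yolk sac, tdTomato, sex-linked and ribosomal names were added after seeing the data.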

Additional observations from a re-analysis of the deposited data

Results flagged for a closer look

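Of 42 values examined, 40 gene levels and 2 shares of gated cells, over the 4 Tet-TKO libraries of E8.5, 3 had a library far from the other libraries of its group by Dixon's test at its 95% critical value, which chance gives in about 1 in 20 groups. In gated cells Hbb-y was highest in library 3 at 2.92 CPM, Prr29 was highest in library 3 at 0.974 CPM, and Mfap2 was lowest in library 1 at 15.9 CPM. The first 2 values rest on 3 UMIs or fewer.

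The genotype difference in gated cells differed from that in Foxa2 cells without T for 58 genes and from that in T cells without Foxa2 for 18 genes, by the interaction test of edgeR, counts that ranged from 2 to 195 and from 5 to 80 over the alternatives run. Dand5 was low in both other sets. Of the genes also called between genotypes, Dand5 (-3.52), Spa17 (-2.54) and Ttr (-1.31) had a more negative log2 difference in gated than in Foxa2 cells. Against T cells, Dand5 (-3.38) and Gstm1 (-1.95) had a more negative one, and Rps3a3 (2.56), Nnat (1.36) and Cpn1 (2.51) a more positive one. Cpn1, a carboxypeptidase subunit, was lower in Tet-TKO in both sets of cells, at 20.9, 28.3, 23.4 and 22.5 against 114 and 97.9 CPM in gated cells and at 0.942, 0.911, 0.374 and 0.728 against 22.1 and 14.6 CPM in T cells. After thinning, which left a Tet-TKO arm of 1 library, its interaction with T cells was -4.76.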

How the results depend on the processing

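The difference in the share of gated cells turned to -0.58 (log2) when cells were thinned to 5000 UMIs. With haemoglobin-rich cells left out of the total it was 0.23. It ranged from -0.19 (without WT host library 2) to 1.34 over single libraries left out. It could not be computed with Noto required, since library 4 had 0 such cells. The E7.5 shares moved to 0.105% and 0.465% when thinned, to 0.109% and 0.350% with at least 2 UMIs of T, of Foxa2 and of Noto and Shh together, and to 0.521% in WT host without doublets. Between genotypes, 34 calls became 228 without a filter on low counts (56 higher, 172 lower), 111 at an adjusted p of 0.05 with no fold (25 and 86), 20 when thinned, 21 with at least 2 UMIs, 20 without doublets and 17 in cells without Noto, and leaving out single libraries gave 10 (without WT host library 1) to 110 (without Tet-TKO library 3), with 65 without Tet-TKO library 1. Against Foxa2 cells, 435 calls became 803 without a filter, 1162 at 0.05, 113 with no block and 189 (without WT host library 2) to 437 with a library left out, and DESeq2 called 347 of 434 genes higher in place of 276 of 435. Against T cells, 1015 became 3420 at 0.05, 529 when thinned, 671 with at least 2 UMIs, 513 with no block and 765 to 950 with a library left out. For Noto, 311 became 61 with DESeq2, 526 at 0.05, 136 with at least 5 cells and 119 with no block; at least 20 cells, thinning, 2 UMIs, doublet removal, tdTomato matching and leaving out a library were not run, since too few libraries were left. For the interaction with Foxa2 cells, 58 became 31 with DESeq2, 159 without a filter, 179 at 0.05, 2 when thinned, 11 with at least 2 UMIs and 15 (without WT host library 1) to 195 (without Tet-TKO library 1), with 134 without WT host library 2. For that with T cells, 18 became 10 with DESeq2, 46 without a filter, 80 at 0.05, 33 with at least 5 cells, 5 when thinned, 5 with at least 2 UMIs, 30 without doublets, 11 with tdTomato-matched cells and 17 to 49 with a library left out (29 without Tet-TKO library 3, 39 and 49 without WT host library 1 and 2). Of values of single genes, 3762 kept side and direction, 579 lost and 4 gained a call, and 33 without a call changed sign. Thinning, which left Tet-TKO library 1 and both WT host libraries in the fits, reversed 7 of them, Hoxb8 against Foxa2 cells (-0.37), Rbp4 and Ttr against T cells (-1.22 and -2.55), and the interactions of Col4a1 (-0.65), H19 (-0.35), Phlda2 (-1.60) and Cpn1 (-4.76). The cause was not tested, except that fewer libraries or cells entered some fits.

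The labels give libraries of both genotypes the numbers 1 and 2, and no label ties a number to a pool. The correlation of deviations from the group mean was 0.119 for number 1 and -0.0329 for number 2. The deviations of 2 WT host libraries mirror each other, so these values cannot show whether like numbers are paired. With a replicate block, 214 genes were called (53 higher, 161 lower), among them all 34. A Tet-TKO library without a WT host library of its number adds nothing to the genotype difference in this fit. Little is then left to measure spread. The adjusted p of Fam183b fell to 3.86e-44 by edgeR, at a log2 difference of -3.21, from 0.00198 at -3.70 in the main fit. The calls of this fit are therefore no check of the 34. With the block, the difference in share was 0.02 (exact permutation p = 1).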

Other observations

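Noto was also counted over all kept cells, gated or not. Over all kept cells, 10, 5, 8 and 0 cells of the Tet-TKO libraries of E8.5 and 45 and 12 cells of the WT host libraries held a Noto UMI, of which 10, 3, 8, 0, 25 and 9 were gated. As a share of kept cells these were 0.142%, 0.0524%, 0.348% and 0% in Tet-TKO and 0.545% and 0.133% in WT host, so the groups overlapped. Kept cells of Tet-TKO library 3 were deeper, with a median of 40404 UMIs against 15231 and 13663.5 in WT host. Per 1e+06 UMIs of all kept cells, Noto was at 0.212, 0.122, 0.168 and 0 in Tet-TKO and 1.40 and 0.402 in WT host. This level did not overlap, and no test was run on it. At E7.5, 21 cells in Tet-TKO and 80 in WT host held a Noto UMI, of which 10 and 52 were gated, or 0.381% and 1.12% of kept cells. T was present in 10, 5, 8, 37 and 12 of the E8.5 cells with Noto in the 5 libraries that had any, and in 17 and 64 at E7.5.

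Gstm1, Gstm5 and Cyba were also called lower in gated Tet-TKO cells, and they were chosen after their values were seen. Gstm1, a glutathione transferase, was at 22.9, 21.2, 23.4 and 15.6 CPM in Tet-TKO and at 147 and 97.9 CPM in WT host (-2.41 ± 0.27, adjusted p = 0.000539 by edgeR). Its family member Gstm5 was at 225, 231, 173 and 109 against 597 and 562 CPM (-1.41 ± 0.18), and Cyba, a subunit of NADPH oxidase, at 47.7, 54.3, 33.1 and 39.8 against 183 and 180 CPM (-1.99 ± 0.24). In none of the 3 did the groups overlap, as for 27.1% of all genes over the libraries fitted, and reads shared by glutathione transferases of the family are uncertain. In Foxa2 cells Gstm1 was at 19.7, 20.5, 23.4 and 10.9 against 154 and 90.3 CPM, a like difference.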
